A study of Mus musculus with 6 samples.

Results

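The cytochrome P450 enzymes described here are those that remain when the barbiturate- and steroid-inducible Cyp2b, Cyp3a and Cyp2c genes, the fatty acid hydroxylases of the Cyp4a, Cyp4f and Cyp4v groups, every gene whose symbol starts with Cyp1, the bile acid and sterol synthesis P450s (the Cyp7 genes, Cyp8b1, Cyp27a1 and Cyp51) and the retinoic acid hydroxylase Cyp26a1 are set aside. Members were picked by gene symbol, through the RefSeq names of the array's probes, by a rule drawn up when earlier results of these data were known. They are 45 genes, carried by 55 probes, among 20284 genes named on the array. The livers came from male Apoe-deficient mice on the C57BL/6J background, which lack apolipoprotein E, the ligand that clears lipoprotein remnants, in every group. In the squalene group, 10 mice ate a purified Western diet with 1% squalene for 11 weeks, a dose that the submitters equate with 1 g per kg of mouse. In the Western group, 9 mice ate that diet without squalene, with 0.15% cholesterol and 20% palm oil in both. The age of the mice is not given in the labels. RNA was pooled from 2 or 3 animals a pool, into 4 squalene pools and 4 Western pools, so the spread between single mice cannot be seen.

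Each of 6 two-colour arrays set 1 squalene pool against 1 Western pool, which gave 4 pairs of pools. Squalene RNA carried Cy5 in pairs 1 and 4 and Cy3 in pairs 2 and 3, and pairs 1 and 2 were run on both slides while pairs 3 and 4 were on slide 2 only. Between 48.7% and 54.2% of spots stood well above background per diet and array, and none was saturated. A ratio here is squalene over Western on the log2 scale, so that 0 means equal signal and 1 a doubling, and a level is the log2 intensity of a probe in 1 pool. Levels of different probes are not comparable with each other. As these are whole livers, fewer cells of a type and less RNA per cell cannot be told apart.

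Cytochrome P450 enzymes are heme proteins that insert oxygen into drugs, plant compounds, steroids, fatty acids and sterols. Those of the endoplasmic reticulum draw electrons from cytochrome P450 reductase and cytochrome b5, those of mitochondria from ferredoxin. Hepatocytes hold most of the body's P450 protein. The nuclear receptors CAR and PXR induce Cyp2b, Cyp3a and part of Cyp2c, whereas many Cyp2d, Cyp2j and single-gene Cyp2 members are known as constitutive enzymes, set by HNF4A, by the liver zone or by the sex-specific growth hormone rhythm.

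The promoters of 5 members are shown for the contrast within the set. Ratios of Cyp2d9 and Cyp2d40 differed widely between pool pairs (SD 0.53 and 0.42), while that of Cyp2d10 hardly moved (SD 0.046). Cyp2c67 and Cyp2c70 had the highest means. The sequences are RefSeq's for GRCm38.p6, 250 bases before to 50 after the annotated start, written 5′ to 3′ on the gene's own strand. Capitals mark matches to CAAAGNNCA, the core of a DR1-type element of the kind HNF4A binds. This motif was picked after the promoters had been read, and was searched on both strands.
Cyp2d9 (chr15:82452127-82452426, plus strand): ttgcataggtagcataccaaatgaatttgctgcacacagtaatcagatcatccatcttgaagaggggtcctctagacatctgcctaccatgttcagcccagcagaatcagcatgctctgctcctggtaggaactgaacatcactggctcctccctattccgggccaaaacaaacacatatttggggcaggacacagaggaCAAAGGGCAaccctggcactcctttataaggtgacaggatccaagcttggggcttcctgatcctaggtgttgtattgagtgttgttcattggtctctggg
Cyp2d10 (chr15:82407145-82407444, minus strand): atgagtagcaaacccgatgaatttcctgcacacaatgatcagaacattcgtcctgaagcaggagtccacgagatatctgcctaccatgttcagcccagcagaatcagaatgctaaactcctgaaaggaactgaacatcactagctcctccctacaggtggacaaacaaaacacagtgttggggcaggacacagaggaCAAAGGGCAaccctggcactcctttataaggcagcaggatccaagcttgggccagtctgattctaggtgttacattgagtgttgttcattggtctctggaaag
Cyp2d40 (chr15:82764073-82764372, minus strand): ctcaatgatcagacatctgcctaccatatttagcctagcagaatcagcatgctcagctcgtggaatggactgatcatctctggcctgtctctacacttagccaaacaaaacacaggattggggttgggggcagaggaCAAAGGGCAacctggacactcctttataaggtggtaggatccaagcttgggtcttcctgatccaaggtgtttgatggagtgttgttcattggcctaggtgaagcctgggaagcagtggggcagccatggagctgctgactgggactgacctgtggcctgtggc
Cyp2c67 (chr19:39648993-39649292, minus strand): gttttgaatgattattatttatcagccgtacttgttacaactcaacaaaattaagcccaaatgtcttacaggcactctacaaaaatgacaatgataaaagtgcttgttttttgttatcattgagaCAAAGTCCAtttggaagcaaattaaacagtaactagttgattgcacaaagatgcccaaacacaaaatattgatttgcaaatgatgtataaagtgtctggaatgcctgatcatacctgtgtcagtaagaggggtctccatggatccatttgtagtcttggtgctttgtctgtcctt
Cyp2c70 (chr19:40187237-40187536, minus strand): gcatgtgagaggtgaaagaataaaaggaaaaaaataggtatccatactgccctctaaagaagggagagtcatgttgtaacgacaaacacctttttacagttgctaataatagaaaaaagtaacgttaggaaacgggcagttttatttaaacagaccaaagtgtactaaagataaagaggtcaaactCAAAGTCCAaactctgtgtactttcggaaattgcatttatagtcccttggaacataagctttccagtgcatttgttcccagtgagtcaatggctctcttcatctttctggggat

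The window of Cyp2d9 matched that of Cyp2d10 at 251 of 296 aligned bases, or 84.8%. The motif begins at position -50 from the start in Cyp2d9, -53 in Cyp2d10, -113 in Cyp2d40, -125 in Cyp2c67 and -64 in Cyp2c70. Cyp2d9 and Cyp2d40 matched at 81% of 231 aligned bases. A promoter was found for 25 of the 35 members measured, and 11 of the 25 (44%) held the motif, against 7.28% of 27025 genes in the table. It was present in all 5 Cyp2d members with a promoter and all 3 Cyp2c members with one, and in none of the 5 Cyp2j members. Among the inducible genes, 6 of 7 Cyp3a, 2 of 6 Cyp2c and 0 of 3 Cyp2b promoters held it. The motif was picked after these promoters had been read, so its higher share among the members was in part fixed beforehand and tests nothing. Cyp2d10 and Cyp2d40 matched at 78.1% of 237 aligned bases. The Cyp2d promoters shown are thus alike and are not independent counts. A match is a description of these letters and not a binding site.

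Of the 45 genes, 35 passed the filter, which asked that a probe be well above background in at least 3 of 4 pairs in at least 1 diet. In 34 of the 35 this was so in every pair and both diets. The 10 that did not pass were not well above background: Cyp2c66, seen in 2 squalene and 1 Western pools, and Cyp2c65, Cyp2j11, Cyp2w1, Cyp2ab1, Cyp4x1, Cyp4b1-ps2, Cyp24a1, Cyp26c1 and Cyp27b1, seen in 0. Cyp27b1 and Cyp24a1 activate and inactivate vitamin D, mostly in kidney. No probe was matched to a further 25 RefSeq symbols of the same kind, 4 of them protein-coding genes (Cyp2a5, Cyp2c40, Cyp2c69 and Cyp2j12), and these were not analysed here.

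No member passed the test for a change with squalene. Of the 35, 0 passed an unadjusted p of 0.05 in limma, where 510 of 20658 features over the whole array did (2.47%). That share of all features fell to 1.23% without the dye term, 0.97% with median centring in place of loess, and 0.03% (6 features) with a trended, robust variance, and the member count was 0 in each of these. After Benjamini-Hochberg adjustment 0 members passed, as did 0% of all features, with a smallest adjusted p of 0.158 over the array and 0.9999 for every member. Means lay above 0 for 20 members and below 0 for 15. Leaving out pair 2 gave 5 members past the unadjusted threshold, against 6.33% of features, and leaving out pair 3 gave 6, against 4.19%. The median over members was 0.018, against 0.0028 over all features. Levels in the squalene and Western pools overlapped in all 35 members, a count that was not made over all features.

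The pool pairs did not share a direction for any member either. 0 members were above 0 in all 4 pairs, where 3.34% of features were, and 0 were below 0 in all 4, where 3.05% were. With 35 members, counts of 0 lie close to such shares, here and at the unadjusted p, and do not set the members apart from the array. Of the 35 members, 8 were above 0 in 3 pairs, 19 in 2 and 8 in 1. A test by sign flips over 4 pairs cannot go below a two-sided p of 0.125, so the model across all features is the only test with reach here. Missing the threshold does not show equal levels, and the intervals give the bounds under the processing used. The 95% interval of the mean ratio lay within ±1 for all 35 members and within ±0.5 for 30. These intervals, and every SE given for a mean ratio, come from the limma model with a dye term, which takes the difference between the dye orientations out of the error. Without that term the interval lay within ±1 for 35 and within ±0.5 for 27. The offset of 50 in the background correction draws ratios of dim probes towards 0, so intervals of dim members bound the shrunken ratio only. With the scanner software's processed signals, median-centred, the Cyp2b median was 2.62, against 1.46. Of the dim members, Cyp2u1 then averaged -0.13, against -0.02, and Cyp2a22 0.01, against 0.02. The adjusted threshold was missed even by Cyp2b10, at a ratio of 3.35 and above 0 in every pair, with an adjusted p of 0.225 in limma.

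**Figure D1:**
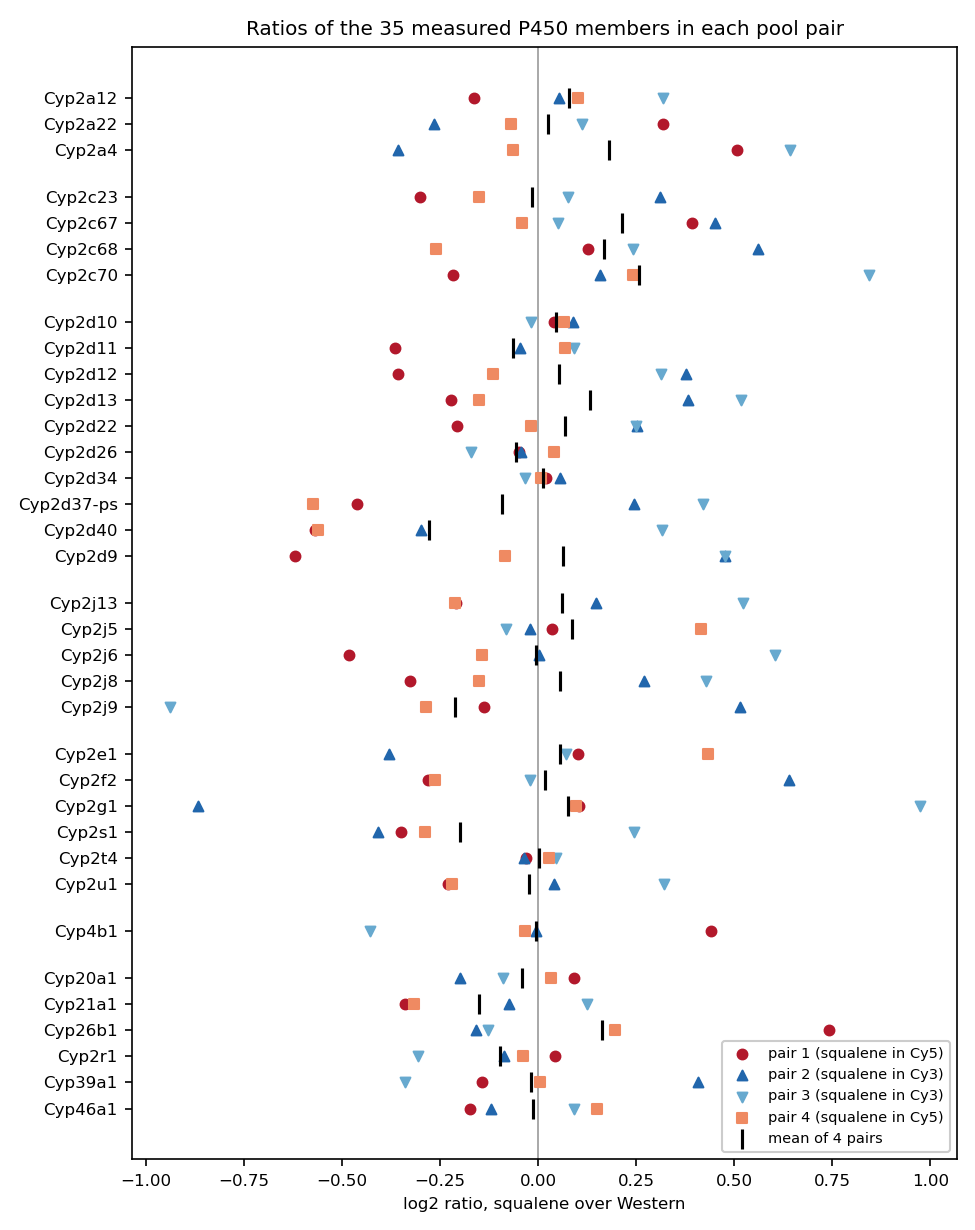
Log2 ratio of squalene over Western (horizontal axis) in each of 4 pool pairs (symbols) for the 35 measured members, grouped by role. Black bars mark the mean of 4 pairs. The means lie between -0.28 and 0.26, and no member has all 4 symbols on one side of 0.

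The Cyp2a genes encode coumarin and steroid hydroxylases. Cyp2a4, a testosterone hydroxylase that is higher in female than in male mouse liver, had log2 levels of 16.01, 16.09, 16.53 and 16.08 in the squalene pools of pairs 1 to 4, against 15.50, 16.44, 15.89 and 16.15 in the Western pools. Its squalene pool of pair 3 stood above the other 3 squalene pools, and the ratio averaged 0.18 ± 0.19 (SE, n = 4 pairs). A second probe of the gene gave 0.42, -0.20, 0.67 and -0.12 in pairs 1 to 4, so both probes put pairs 1 and 3 above 0 and pairs 2 and 4 below. Cyp2a12, which hydroxylates testosterone, had log2 levels of 14.88, 15.17, 15.27 and 15.08 in the squalene pools of pairs 1 to 4, against 15.05, 15.11, 14.95 and 14.98 in the Western pools. The squalene range enclosed the Western range, and the mean ratio was 0.08 ± 0.08 (SE, n = 4 pairs). Cyp2a22 averaged 0.02 ± 0.10 (SE, n = 4 pairs).

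The 4 Cyp2c members measured are those outside the inducible block. Cyp2c70, the mouse enzyme that makes muricholic acids from chenodeoxycholic acid, had log2 levels of 14.53, 14.98, 15.05 and 14.99 in the squalene pools of pairs 1 to 4, against 14.75, 14.83, 14.21 and 14.75 in the Western pools. Its mean ratio of 0.26 ± 0.14 (SE, n = 4 pairs) was the highest of the 35, with a 95% interval of -0.10 to 0.62. The low squalene pool of pair 1 and the low Western pool of pair 3 each stood apart from the other 3 of their diet. The mean was 0.43 without pair 2, where the unadjusted p in limma was 0.0164, but 0.084 without pair 3 and 0.14 without pair 4, where it was 0.506 and 0.441. Cyp2c23, an arachidonic acid epoxygenase best known from kidney, had log2 levels of 13.56, 14.28, 13.98 and 13.96 in the squalene pools of pairs 1 to 4, against 13.86, 13.97, 13.90 and 14.11 in the Western pools. Its mean ratio was -0.02 ± 0.07 (SE, n = 4 pairs).

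Cyp2c67 and Cyp2c68, neighbours in the Cyp2c cluster on chromosome 19, averaged 0.21 ± 0.11 (SE, n = 4 pairs) and 0.17 ± 0.09 (SE, n = 4 pairs). The brighter Cyp2c67 probe gave 0.39, 0.45, 0.05 and -0.04 in pairs 1 to 4, and a second probe gave -0.04, 0.60, 0.23 and -0.23. The probes disagreed in pair 1 and shared the high value of pair 2. Cyp2c68 was above 0 in 3 pairs and at -0.26 in pair 4. These genes lie close in sequence to the inducible Cyp2c genes, and how far a probe also takes up RNA of a paralogue was not tested. Cyp2c54 and Cyp2c50, inducible members of the cluster, averaged 0.72 and 0.60 in the same pairs.

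The 10 Cyp2d members, all on chromosome 15, include the mouse relatives of the human drug-metabolising enzyme CYP2D6. None of the 10 passed an unadjusted p of 0.05, and their median was 0.028. Cyp2d9, a testosterone hydroxylase that is male-specific in mouse liver, had log2 levels of 14.72, 15.77, 15.60 and 15.34 in the squalene pools of pairs 1 to 4, against 15.34, 15.29, 15.12 and 15.42 in the Western pools. The squalene pools spread more widely (SD 0.46) than the Western pools (SD 0.13). Its ratios of -0.62, 0.48, 0.48 and -0.08 averaged 0.06 ± 0.10 (SE, n = 4 pairs), with pairs 2 and 3 both well above 0 and pair 1 well below. Its SD between pairs was 0.53, and the SE without the dye term was 0.19.

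Cyp2d10, whose promoter resembles that of Cyp2d9, had log2 levels of 15.96, 16.05, 16.05 and 16.05 in the squalene pools of pairs 1 to 4, against 15.92, 15.97, 16.07 and 15.99 in the Western pools. Its SD between pairs was 0.046, and the mean ratio 0.04 ± 0.06 (SE, n = 4 pairs). The squalene pool of pair 1 was the lowest of its diet, by under 0.1. Cyp2d26 had log2 levels of 16.84, 16.93, 16.72 and 17.04 in the squalene pools of pairs 1 to 4, against 16.89, 16.98, 16.89 and 17.00 in the Western pools. Its pairs had an SD of 0.087 and a mean ratio of -0.06 ± 0.06 (SE, n = 4 pairs). Cyp2d22, often named as the mouse counterpart of CYP2D6, had log2 levels of 12.74, 13.50, 13.36 and 13.28 in the squalene pools of pairs 1 to 4, against 12.95, 13.25, 13.11 and 13.30 in the Western pools, and averaged 0.07 ± 0.06 (SE, n = 4 pairs).

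Cyp2d40 had the lowest mean of all members, -0.28 ± 0.11 (SE, n = 4 pairs), with ratios of -0.57, -0.30, 0.32 and -0.56 and a 95% interval of -0.56 to 0.00. It was below 0 in 3 pairs and above 0 in pair 3. Without the dye term the interval was -0.66 to 0.10. Its unadjusted p of 0.0522 in limma was the smallest of the 35, with an adjusted p of 0.9999. Cyp2d34 gave 2 unlike readings: the brighter probe stayed between -0.03 and 0.05 in every pair, while the other gave -0.63, 0.25, 0.46 and 0.04. That second pattern is close to the one of Cyp2d9. Which transcripts each probe takes up was not tested, as probe sequences were not used here.

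The other Cyp2d members were Cyp2d11 at -0.06, Cyp2d12 at 0.05, and the transcribed pseudogenes Cyp2d13 at 0.13 and Cyp2d37-ps at -0.09. Cyp2d13 ran at -0.22, 0.38, 0.52 and -0.15 and Cyp2d37-ps at -0.46, 0.24, 0.42 and -0.57 in pairs 1 to 4. In both, pairs 2 and 3 were above 0 and pairs 1 and 4 below.

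The Cyp2j genes encode arachidonic acid epoxygenases, and 5 of 6 were measured. Cyp2j5, abundant in kidney and liver, had log2 levels of 8.56, 8.69, 8.72 and 8.96 in the squalene pools of pairs 1 to 4, against 8.52, 8.71, 8.80 and 8.54 in the Western pools. The squalene pool of pair 4 was the highest of the 8, and the mean ratio was 0.09 ± 0.08 (SE, n = 4 pairs). Cyp2j6 had log2 levels of 9.26, 9.81, 9.80 and 9.70 in the squalene pools of pairs 1 to 4, against 9.75, 9.81, 9.20 and 9.85 in the Western pools. Pair 1 was at -0.48 and pair 3 at 0.60, which cancelled to -0.01 ± 0.12 (SE, n = 4 pairs). Its second probe gave -0.36, -0.30, 0.29 and -0.13, the same order of extremes.

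Cyp2j9, first known from brain, had log2 levels of 9.54, 9.79, 9.17 and 9.67 in the squalene pools of pairs 1 to 4, against 9.68, 9.27, 10.11 and 9.95 in the Western pools. Pairs 2 and 3 lay at 0.51 and -0.94, on opposite sides of 0, and the mean was -0.21 ± 0.24 (SE, n = 4 pairs). Cyp2j8 averaged 0.05 and Cyp2j13 0.06. For both, pairs 2 and 3 were above 0 and pairs 1 and 4 below, as in Cyp2d13.

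Among the Cyp2 genes that stand alone in their subfamily, Cyp2e1 oxidises ethanol, acetone and small toxicants around the central vein. It had log2 levels of 17.48, 17.26, 17.44 and 17.73 in the squalene pools of pairs 1 to 4, against 17.38, 17.64, 17.37 and 17.30 in the Western pools. The diets crossed over, with the highest squalene pool in pair 4 and the highest Western pool in pair 2, and the mean ratio was 0.06 ± 0.10 (SE, n = 4 pairs). A second Cyp2e1 probe gave -0.17, -0.17, 0.37 and 0.25, so the sign was shared in pairs 2, 3 and 4 only. Cyp2f2, the naphthalene-oxidising enzyme of periportal hepatocytes and airway club cells, had log2 levels of 15.77, 16.45, 16.25 and 16.05 in the squalene pools of pairs 1 to 4, against 16.05, 15.82, 16.27 and 16.32 in the Western pools. Pair 2 alone was above 0, and the mean ratio was 0.02 ± 0.12 (SE, n = 4 pairs).

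Cyp2g1, an enzyme of olfactory mucosa, had log2 levels of 7.04, 7.22, 7.84 and 7.89 in the squalene pools of pairs 1 to 4, against 6.93, 8.09, 6.86 and 7.79 in the Western pools. Its ratios were the most widely spread of the set, from -0.87 in pair 2 to 0.97 in pair 3 (SD 0.75), and averaged 0.08 ± 0.29 (SE, n = 4 pairs). The mean was 0.54 without pair 2 and -0.38 without pair 3, both past an unadjusted p of 0.05 and opposite in sign. Cyp2u1, a fatty acid hydroxylase of brain and thymus, had log2 levels of 6.47, 7.05, 6.94 and 6.65 in the squalene pools of pairs 1 to 4, against 6.70, 7.01, 6.62 and 6.87 in the Western pools, and averaged -0.02 ± 0.07 (SE, n = 4 pairs). Cyp2s1, an epithelial enzyme known to respond to the aryl hydrocarbon receptor, averaged -0.20 and was below 0 in every pair but pair 3. Cyp2t4 averaged 0.001, with all pairs between -0.04 and 0.05. The other two single genes, Cyp2w1 and Cyp2ab1, were not above background.

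**Figure D2:**
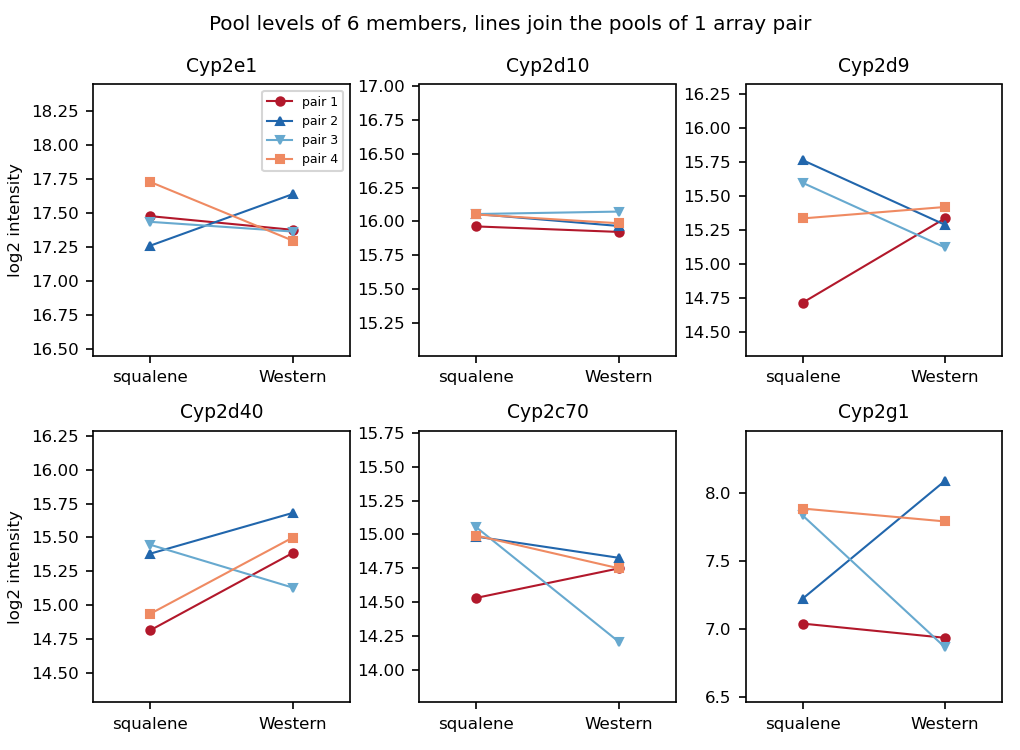
Log2 intensity (vertical axis, each panel spanning 2 units) of 6 members in the squalene pools (left) and the Western pools (right), with a line joining the 2 pools that shared arrays. Lines cross in Cyp2e1, Cyp2d9 and Cyp2g1, lie nearly flat in Cyp2d10, and for Cyp2d40 run upward to the Western pool in every pair but pair 3.

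Cyp4b1, a fatty acid hydroxylase best known from lung, had log2 levels of 9.79, 9.28, 9.03 and 9.33 in the squalene pools of pairs 1 to 4, against 9.35, 9.29, 9.46 and 9.37 in the Western pools. Pair 1 was at 0.44 and pair 3 at -0.43, and the mean was -0.01 ± 0.11 (SE, n = 4 pairs). Cyp2r1, the vitamin D hydroxylase that makes the circulating form in liver, had log2 levels of 10.65, 10.61, 10.54 and 10.77 in the squalene pools of pairs 1 to 4, against levels between 10.61 and 10.84 in the 4 Western pools. Its mean ratio of -0.10 ± 0.06 (SE, n = 4 pairs) came with a 95% interval of -0.26 to 0.07, and a second probe averaged -0.085.

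A pair of members makes or breaks down an oxysterol. Cyp39a1, the hydroxylase of a side-chain hydroxylated cholesterol in liver, had log2 levels of 11.19, 10.92, 10.99 and 10.47 in the squalene pools of pairs 1 to 4, against 11.33, 10.51, 11.33 and 10.47 in the Western pools. Levels differed more between pairs than between diets, and the mean ratio was -0.02 ± 0.13 (SE, n = 4 pairs). Cyp46a1, which makes that oxysterol from cholesterol mainly in neurons, had log2 levels of 7.49, 7.69, 7.79 and 7.88 in the squalene pools of pairs 1 to 4, against 7.67, 7.81, 7.70 and 7.73 in the Western pools. It averaged -0.01 ± 0.08 (SE, n = 4 pairs).

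Cyp26b1, which breaks down retinoic acid, averaged 0.16 ± 0.10 (SE, n = 4 pairs), with 0.74 in pair 1 and 0.19 in pair 4, against -0.16 in pair 2 and -0.13 in pair 3. Cyp21a1, the adrenal steroid hydroxylase, averaged -0.15 ± 0.06 (SE, n = 4 pairs) with an unadjusted p of 0.0545 and an adjusted p of 0.9999 in limma. It was below 0 in every pair but pair 3. Without the dye term its SE was 0.096 and its unadjusted p 0.162 in limma. Cyp20a1, a P450 without a settled substrate, averaged -0.04.

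Pool pairs lay further apart in the members than over the array, a description without a test. The SD between pairs had a median of 0.32 over members and 0.16 over all features, and it was above 0.3 in 19 of 35 members, against 16.4% of features. The median SD was 0.44 for 11 hepatocyte markers and 0.61 for 12 male-biased genes, wider than in the members, and 0.28 for 13 redox partners and other P450-linked genes. In 6 members the pairs ranged over more than 1 on the log2 scale. The mean ratio lay within 0.1 of 0 in 25 members and in 83.3% of all features.

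Pairs 1 and 2 were each hybridised again on the other slide. Over the 35 members the ratios of the 2 arrays of pair 1 correlated at r = 0.94 across genes, and those of pair 2 at r = 0.95, though genes are not independent replicates. The technical SD was 0.090 for pair 1 and 0.074 for pair 2. The widest gap between repeats was 0.29 for Cyp2c68 in pair 1 and 0.27 for Cyp2g1 in pair 2. A repeat shares its pools and its dye orientation, so these values hold only the spread between hybridisations of the same labelling order.

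Some members were split by dye orientation. In 14 of 35 members both Cy3 pairs (2 and 3) were above both Cy5 pairs (1 and 4), where 22.3% of all features showed this. The reverse held in 5 members, against 26.5% of features. The first kind took in 6 of 10 Cyp2d genes (Cyp2d9, Cyp2d12, Cyp2d13, Cyp2d22, Cyp2d37-ps and Cyp2d40), and Cyp2j6, Cyp2j8, Cyp2j13, Cyp2c23, Cyp2c68, Cyp2f2, Cyp2u1 and Cyp21a1. The second took in Cyp2e1, Cyp2j5, Cyp2r1, Cyp20a1 and Cyp26b1. Cyp2d9 averaged -0.35 in the Cy5 pairs and 0.48 in the Cy3 pairs.

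The dye term of the model had an unadjusted p below 0.05 in 12 of 35 members, where 15.3% of features did, and an adjusted p below 0.05 in 0, the smallest being 0.118 in limma. Member medians were -0.17, 0.04, 0.11 and -0.04 in pairs 1 to 4, and 13, 19, 24 and 14 of 35 members were above 0. Over all features 52.7%, 48.2%, 47.8% and 51.4% were above 0 in those pairs. Each orientation holds 2 pairs of different animals, so dye and pools cannot be told apart, and a constant dye effect cancels in the mean ratio.

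**Figure D3:**
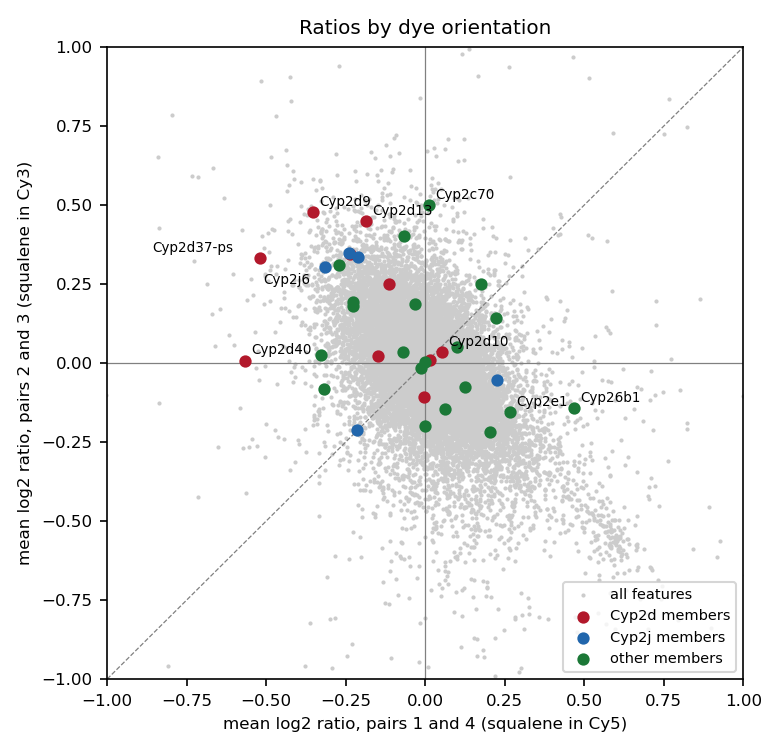
Mean log2 ratio in the pairs with squalene in Cy5 (horizontal axis) and in those with squalene in Cy3 (vertical axis) for members in colour and all features in grey, with 62 features outside the axes. Members above the dashed line were higher in the Cy3 pairs, as Cyp2d9 was at -0.35 and 0.48, while Cyp26b1 lies below it.

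Markers of hepatocytes and of other cells moved with the pairs too. The median of the hepatocyte list, which holds Alb, Ttr and Ahsg and had 11 of 12 genes measured, was 0.23, -0.25, -0.16 and 0.24 in pairs 1 to 4, with summed intensities of 1054440 to 1335010 in the squalene pools and 1010730 to 1298870 in the Western pools. All 14 periportal markers, Cyp2f2 among them, and all 14 pericentral markers, Cyp2e1 among them, were measured. In both lists 0 passed an unadjusted p of 0.05. Below 0 in all 4 pairs were 2 pericentral genes, among them Glul at -0.22, and 0 periportal genes, against 3.05% of all features. Male-biased genes had medians of -0.65, 0.21, 0.51 and 0.16, lowest in pair 1 as was Cyp2d9, which is itself on that list. Of the 8 female-biased genes measured, which include Cyp2a4, the 2 that were higher at that threshold were Cyp2b9 and Cyp3a16. Lipid-associated macrophage markers had medians of 0.20, -0.65, -0.68 and -0.12, with 5 of 8 lower at an unadjusted p below 0.05, where 1.42% of all features were, and summed intensities of 5530 to 9134 in the squalene pools against 8772 to 11145 in the Western pools. Red cell genes ran at 0.01, -0.54, -1.62 and 0.14, with 3 of 6 lower and sums of 77247 to 165492 against 108356 to 253868. Fibroblast and stellate markers ran at 0.11, -0.16, -0.49 and 0.12, with 5 of 11 lower and sums of 24424 to 36004 against 31424 to 36742. Kupffer cell (11 of 12 genes measured), endothelial (8 of 8) and bile duct (5 of 6) lists had 0 genes past that threshold, while 1 of 6 lymphocyte genes was higher (1.05% of all features were) and 1 of 3 pancreatic genes lower. None of these marker genes passed the adjusted threshold in limma. The Cy5 pairs were both above the Cy3 pairs in 6 of the 8 lipid-associated macrophage, 4 of the 6 red cell and 7 of the 11 fibroblast and stellate genes. This also held in 6 of the 11 hepatocyte, 4 of the 8 endothelial and 3 of the 6 lymphocyte genes. It held in 1 of the 11 Kupffer cell genes and in 0 bile duct and 0 pancreatic genes, against 26.5% of all features. The part of these markers in the members' ratios was not tested.

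The list of electron donors and other genes linked to P450s, such as the epoxide hydrolases Ephx1 and Ephx2, was measured in full, with 13 of 13 genes above background and 0 past an unadjusted p of 0.05. Por, the reductase that serves the microsomal enzymes, averaged 0.19 ± 0.16 (SE, n = 4 pairs), with 0.14, -0.29, 0.67 and 0.25 in pairs 1 to 4. Pgrmc1, a heme-binding partner of P450s, was above 0 in every pair at 0.16, 0.20, 0.12 and 0.05, and averaged 0.13 with an unadjusted p of 0.0648. Cyb5a averaged 0.19 and Pgrmc2 -0.19. Of 18 regulators of hepatic P450 genes, 17 were measured and 1 was higher at an unadjusted p below 0.05: Bcl6, a repressor that is higher in male than in female mouse liver, at 1.26 with ratios of 0.28, 0.52, 2.74 and 1.5 and an adjusted p of 0.9999 in limma.

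Hnf4a and Cebpa, hepatocyte factors that drive many P450 genes, had means near 0 and wide pairs. Hnf4a averaged 0.05 but ran at -0.35, 0.52, 0.32 and -0.30 in pairs 1 to 4. Cebpa had the same order of orientations, at -0.24, 0.57, 0.46 and -0.41. In both, the Cy3 pairs were above 0 and the Cy5 pairs below, as in Cyp2d9, Cyp2d12, Cyp2d13, Cyp2d22 and Cyp2d37-ps. Of the 17 regulators, 5 had both Cy3 pairs above both Cy5 pairs, against 22.3% of all features, and 2 had the reverse, against 26.5%. A link between these factors and the members' ratios was not tested. Nr1i2 (PXR) averaged -0.01, Nr1i3 (CAR) -0.06, and Nr5a2 0.16 with all pairs above 0.

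Most inducible P450s on the same arrays had ratios above those of the members. All 7 inducible Cyp2c genes were above 0 in every pair, where 3.34% of all features were, with a median of 0.72. All 7 were higher at an unadjusted p below 0.05 in limma, where 1.05% of all features were. Of 7 Cyp3a genes, 6 passed that threshold and 4 were above 0 in every pair, with a median of 0.71. Of 3 Cyp2b genes, 2 passed it and were above 0 in every pair, with Cyp2b10, the classic CAR target, at 3.35. None of these passed the adjusted threshold in limma. With a trended, robust variance 2 Cyp2b, 3 Cyp2c and 0 Cyp3a genes passed the unadjusted one, and without the dye term 2, 7 and 4. The largest member mean, 0.26 for Cyp2c70, was below the lowest of the inducible Cyp2c genes, 0.57 for Cyp2c37, but above Cyp2b13 at 0.13, Cyp3a13 at 0.13 and Cyp3a25 at 0.22. The difference between the groups was not tested, as genes are not replicates. The inducible genes were set aside by a rule drawn up with earlier results known, so the contrast may in part be fixed by that choice. The orientation split was not particular to the members: 6 of 7 inducible Cyp2c and 4 of 7 Cyp3a genes were also higher in both Cy3 pairs. This held in 0 of 3 Cyp2b genes and in 22.3% of all features.

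**Figure D4:**
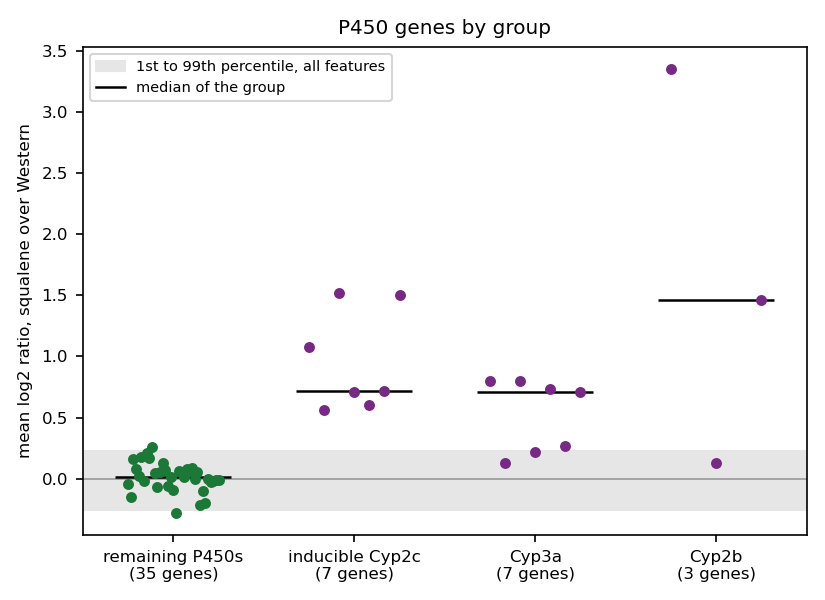
Mean log2 ratio of squalene over Western (vertical axis) for each measured gene of the remaining P450s and of the inducible Cyp2c, Cyp3a and Cyp2b groups, with the group median as a line. The grey band holds the 1st to 99th percentile of all features, -0.26 to 0.23. Of the 35 remaining P450s, Cyp2d40 at -0.28 and Cyp2c70 at 0.26 lie just outside the band and the others within it. The median of the 35 is 0.02, while the medians of the other groups are 0.72, 0.71 and 1.46.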

How the data were processed

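Total RNA of pooled livers was labelled from 200 ng a pool and hybridised to two-colour Agilent mouse arrays of 62976 spots, 3671 of them controls. The deposited spot intensity values and flags come from Agilent Feature Extraction 10.7, per the file headers and the submitters' processing notes. Flags are deposited marks of 0 or 1, per the file headers. The deposited value table holds log10 ratios that equal those of the median signals of squalene over Western within 0.001 in at least 99.9% of spots, with no centring, so it was used only as an alternative. In the deposited columns of the pair 1 arrays, 2 cells each hold a score that is no log ratio and were left out. Replicates are pools of separate animals.

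Median spot and background signals were corrected with normexp (offset 50) and loess in limma 3.58.1 (R 4.3.3), spots of a probe and arrays of a pair were averaged, and a model with a dye term was fitted to 4 pairs, with Benjamini-Hochberg adjustment over 20658 features. The planned test named spot signals without saying which, and medians were used. Of 55681 probes, 26762 had a RefSeq name and 26852 passed the filter. The brightest probe stands for a gene, and each other probe above background is given. Paralogues of near-identical sequence may share signal. Levels come from the normalised channels after quantile scaling of the average intensity between arrays (Aquantile). The members and lists were chosen with earlier results of these data known. Every measured member is named, and full values go to a fixed list of hepatic enzymes and to members that passed a test, kept one sign, or ranged over more than 1 between pairs. From each further list up to 4 genes of smallest p are named, and Por, Hnf4a, Nr1i2, Nr1i3, the inducible P450s and 3 hepatocyte markers were named beside them for their role, after their values were seen. The array count limits precision, with 2 residual degrees of freedom and a median SE of 0.065. The fit was tested on simulated pairs. There the adjusted threshold called 38 of 50 features changed 2-fold, 46 of 50 changed 4-fold, and 6 of 20458 left unchanged. The simulated set also held features changed 8-fold and 16-fold, and took each feature's spread from its own 4 pairs. On the arrays themselves no feature passed the adjusted threshold, not even Cyp2b10 at 3.35. The simulated shares therefore do not give the chance of calling such a change in these data. Alternatives changed background correction, normalisation, filter, dye term, slide, probe rule and variance model, or left out 1 pair at a time.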

Additional observations from a re-analysis of the deposited data

Results flagged for a closer look

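In 5 of the 73 groups of 4 values examined, 1 value stood far from the other 3, where chance alone marks about 1 group in 20. The groups were the 4 pair ratios of each of 35 members and, for 19 members, the 4 pool levels of each diet. All 5 flagged groups were of pool levels and none of pair ratios, so the share among groups of pools is higher than among all 73. Cyp2a4 was high, at a log2 level of 16.53, in the squalene pool of pair 3. Cyp2d10 was low, at 15.96, in the squalene pool of pair 1, although the levels in the squalene pools spanned under 0.1. Cyp2j6 was low, at 9.2, in the Western pool of pair 3. For Cyp2c70, the squalene pool of pair 1 was low at 14.53, and so was the Western pool of pair 3 at 14.21. No cause was tested for any of them.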

How the results depend on the processing

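No member passed an adjusted p of 0.05 under any of the 15 alternatives, and the smallest adjusted p of a member was 0.393, without pair 2. Means changed sign in 0 to 4 members in the alternatives that kept all pairs, and in 6, 5, 10 and 6 without pairs 1, 2, 3 and 4. The count of features over the whole array past the adjusted threshold was 2 with median centring in place of loess, 4 with all 6 arrays, a slide covariate and the pool pair as a replicate block, and 8 with the deposited value table, against 0. The count of members at an unadjusted p below 0.05, 0 in the fit reported, was 3 of 45 with no filter (Cyp21a1, Cyp2d13 and Cyp2d40, against 2.52% of features), 1 with the replicate block (Cyp2d40, 2.42%) and 1 with the mean over probes (Cyp21a1, 2.47%). Leaving out 1 pair at a time gave 0 to 6 such members: 0 without pair 1, 5 without pair 2 (Cyp2a4, Cyp2c70, Cyp2g1, Cyp2j9 and Cyp39a1), 6 without pair 3 (Cyp21a1, Cyp2c67, Cyp2d40, Cyp2f2, Cyp2g1 and Cyp2s1) and 2 without pair 4 (Cyp26b1 and Cyp2c67), where 2.79%, 6.33%, 4.19% and 1.77% of features passed. With 3 pairs, 3 to 5 members kept one sign, against 16.9% to 18.4% of features. The member median was -0.014 to 0.046 on leaving out a pair and 0.0052 to 0.029 otherwise. The cause was not tested. The number of arrays limits the precision, and signal over background the 10 genes that did not pass the filter.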
